A study of Mus musculus with 18 samples.

Results

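Activins are secreted dimers of the TGF-β superfamily, and the 9 genes described here encode activin subunits, follistatin family proteins and activin receptors. The members were taken by name from a table of 55450 genes: the activin subunit genes Inhba and Inhbb, the follistatin family genes Fst, Fstl1 and Fstl3, and the receptor genes Acvr1, Acvr1b, Acvr2a and Acvr2b. RNA was sequenced from mouse embryonic fibroblasts (MEF), a cultured cell line from a cell bank, in 18 libraries that form 6 groups of 3. Cells were transiently transfected with empty pcDNA3 (empty vector), with a plasmid that expresses miR-29b from a rat Col1a1 promoter (Col1a1-miR-29b), or with the same plasmid carrying a CMV promoter in its place (CMV-miR-29b). From 6 h after transfection, cells of each kind were kept for 24 h with TGF-β or without it. Both miR-29b plasmids carry a human miR-29b-1 sequence with EGFP and mRFP1 markers, so the effect of the microRNA and that of the other plasmid parts cannot be told apart against empty pcDNA3. Plasmids were dosed by moles, and the study's methods give a larger DNA mass for Col1a1-miR-29b than for CMV-miR-29b. Between these vectors, promoter and DNA mass cannot be told apart. The study calls the 3 libraries of a group repeated experiments without saying how far they were separate cultures. The p-values therefore measure only the spread between these libraries. No source used here gives the share of cells that took up a plasmid.

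Activin A is a dimer of the protein made from Inhba, and activin B is a dimer of the protein made from Inhbb. An activin binds a type II receptor (made from Acvr2a or Acvr2b), which then activates a type I receptor such as ALK4 (made from Acvr1b), and the signal runs through Smad2 and Smad3, as that of TGF-β does. Follistatin (Fst) and follistatin-like 3 (Fstl3) are secreted proteins that bind activins and keep them from their receptors, and in fibroblasts activin A is known as a factor that promotes matrix production.

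Total counts per library ran from 65898017 to 80332633, with a median of 74155860. As a check of the overexpressed gene, Mir29b-1 had 0 counts in all empty vector libraries and 110 to 309 in those with CMV-miR-29b, whereas Col1a1-miR-29b libraries had 0 to 1 without TGF-β and 2 to 6 with it, so this precursor did not set the untreated Col1a1-miR-29b libraries apart from empty vector. These libraries of poly(A) RNA do not measure mature miR-29b. Of 11 fibroblast markers, 9 had a mean of at least 1 CPM (counts scaled for library size by edgeR's TMM), Lum was at 0 in every library and Thy1 stayed at or below 0.114 CPM. The summed level of 5 epithelial markers was at most 1.09 CPM, that of 4 endothelial markers at most 3.03 CPM and that of 2 pluripotent cell markers at most 2.35 CPM. The 4 leukocyte markers summed to 9.35 to 13.9 CPM and the 3 skeletal muscle markers to 13.5 to 21.3 CPM, of which Cd68 made up 8.41 to 13.1 CPM and Des 13.5 to 21.3 CPM, whereas Ptprc, Adgre1, Myod1 and Myog were at most 0.343 CPM. Of the genes that mark gonadal and pituitary sources of inhibin, Inha ran from 1.47 to 2.74 CPM, Amh was at most 0.455 CPM and Fshb was at 0.

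Levels of different genes were compared as FPKM, a value scaled for transcript length and library total, in the 16 libraries whose FPKM could be matched to a sample. Fstl1 was the most abundant member, with 77.0 FPKM on average (56.2 to 102), and Fstl3 followed with 34.2 FPKM (21.3 to 50.3). The receptors Acvr1, Acvr2a and Acvr1b averaged 5.81, 5.22 and 4.82 FPKM. Over all 16 libraries their ranges of 3.76 to 8.41, 4.71 to 5.69 and 4.16 to 5.97 FPKM overlapped. Without TGF-β the 3 ranges also overlapped in empty vector cells. With TGF-β, every library had Acvr1 above Acvr2a and Acvr2a above Acvr1b, and the ranges were apart within each vector. In treated empty vector cells they were 6.69 to 8.41, 5.37 to 5.67 and 4.41 to 4.96 FPKM, in that order. Inhba averaged 3.97 FPKM with the widest spread relative to its level among the members above 1 FPKM (1.64 to 9.11). Fst averaged 1.73 FPKM (1.43 to 2.22) and Acvr2b 0.354 FPKM (0.184 to 0.548). By FPKM, Acvr2a was the more abundant type II receptor transcript. Its FPKM was 13.0 ± 3.20 (SD, n = 3) times that of Acvr2b in empty vector cells without TGF-β. Orc4 overlaps Acvr2a on the opposite strand, so its reads may add to this ratio. Inhbb was listed at 0.0001, the value given where the count was 0, in all but 2 of the 16 libraries, where it had 0.00983 and 0.0108 FPKM.

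**Figure D1:**
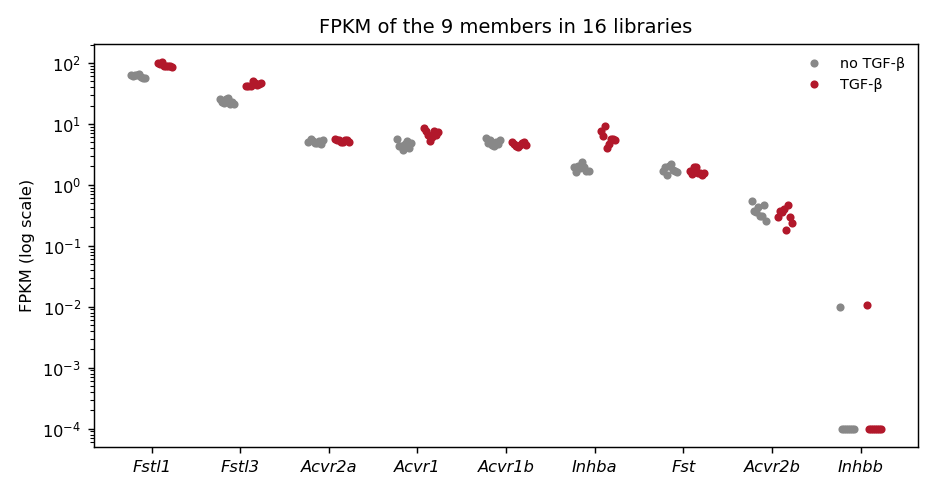
FPKM on a log scale of each of the 9 members in 16 libraries, grey without TGF-β and red with it, pooled over the 3 vectors, where each point is a library. Fstl1 and Fstl3 lie above 20 FPKM in every library, Acvr2b lies below 1, and 0.0001 stands for 0.

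Inhba was the member with the largest log2 fold change for TGF-β in empty vector cells. Inhba (ENSMUSG00000041324) lies on the plus strand of GRCm38 at chr13:16011851-16031621. In empty vector cells without TGF-β, its normalised count was 14.3, 11.7 and 14.6 CPM in libraries c, d and e. With TGF-β it was 55.9, 44.9 and 67.1 CPM. Every treated library exceeded every untreated one, by a wide gap. The rise was 4.13-fold, a log2 fold change of 2.05 (SE 0.13, adjusted p = 7.95e-08, edgeR's quasi-likelihood test over 21161 genes), and ranked 31st by p among them. In these bulk libraries, fewer cells that express a gene and less of its RNA per cell cannot be told apart.

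With the Col1a1-miR-29b vector, Inhba read 13.4, 16.3 and 14.1 CPM without TGF-β in library c, library d and the library without a letter. With TGF-β it read 28.9, 33.4 and 32.7 CPM. These groups did not overlap either, and the 3 treated libraries lay below all 3 treated empty vector libraries. The rise was 2.16-fold (log2 fold change 1.11, SE 0.13, 95% confidence interval 0.84 to 1.39, edgeR adjusted p = 5.20e-05). For CMV-miR-29b, Inhba went from 13.97, 11.95 and 12.18 CPM to 40.6, 40.1 and 38.3 CPM in libraries c, d and e, a 3.12-fold rise (log2 fold change 1.64, SE 0.13, edgeR adjusted p = 8.70e-07). The treated CMV-miR-29b libraries lay above those with Col1a1-miR-29b and below those with the empty vector.

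**Figure D2:**
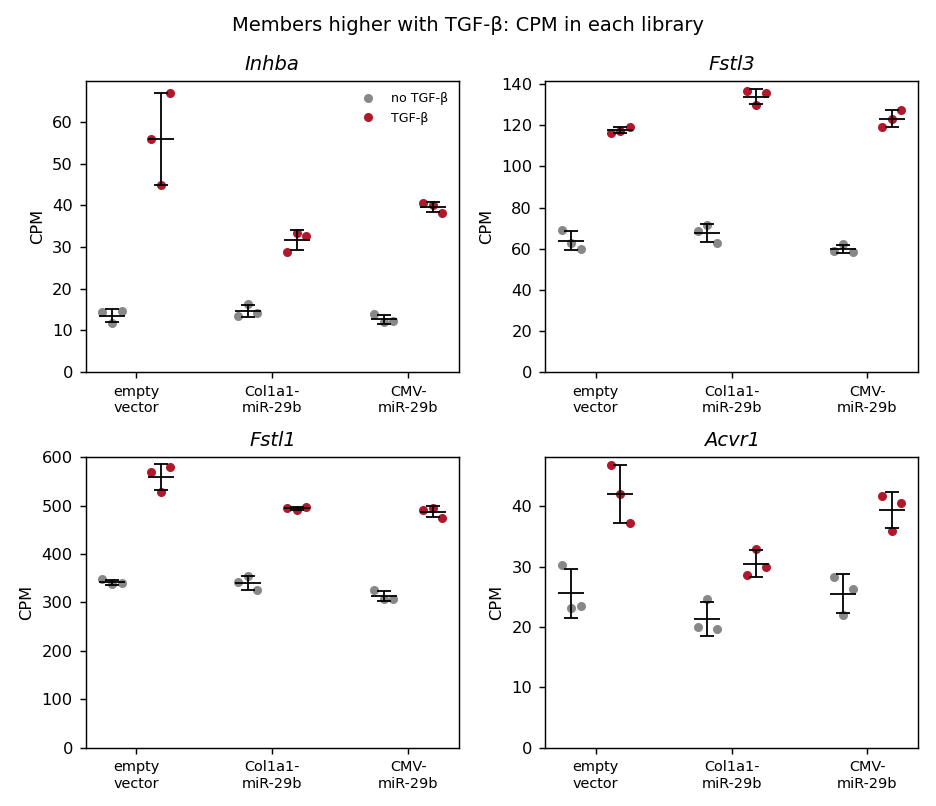
Normalised counts (CPM) of Inhba, Fstl3, Fstl1 and Acvr1 in each of the 18 libraries by vector, grey without TGF-β and red with it, with the mean and SD of each group of 3 in black. In all 4 panels the red points lie above the grey points of the same vector, and for Inhba the treated groups fall in 3 separate ranges.

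Set directly against empty vector cells, both with TGF-β, Inhba was lower with Col1a1-miR-29b at a log2 fold change of −0.82 (SE 0.13, 95% confidence interval −1.09 to −0.55, edgeR adjusted p = 0.00114), a difference of −43.4%. This call was kept in all 6 fits that each left out a library and in all 12 other alternatives, with adjusted p of 7.05e-08 to 0.0348. Without TGF-β the same vectors differed in Inhba by 0.11 on the log2 scale (95% confidence interval −0.16 to 0.39, edgeR adjusted p = 0.705). The difference between the TGF-β responses themselves was −0.93 (SE 0.18, 95% confidence interval −1.32 to −0.55), with an unadjusted p of 0.000117 that did not pass after adjustment in edgeR (adjusted p = 0.412). DESeq2 called it (adjusted p = 0.00594), so whether this interaction passes depends on the tool. No gene of the 21161 passed that contrast in edgeR (0%), with 961 at an unadjusted p under 0.05, and DESeq2 called 21.

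For CMV-miR-29b with TGF-β, Inhba differed from empty vector by −0.50 on the log2 scale (SE 0.13, 95% confidence interval −0.77 to −0.22). It did not pass in edgeR (adjusted p = 0.180), but did in DESeq2 (adjusted p = 0.0233) and in edgeR without empty vector TGF-β replicate d (adjusted p = 0.0328). That library had the lowest Inhba level of its group, and without it calls over all genes in this contrast rose from 2 to 160 (0.729%). The response with CMV-miR-29b was 0.40 lower on the log2 scale than with the empty vector (95% confidence interval of the difference −0.79 to −0.02, unadjusted p = 0.0412, edgeR adjusted p = 0.922). Over all genes that contrast also gave 0 calls in edgeR (0%), with 1129 at an unadjusted p under 0.05, and 19 calls in DESeq2.

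Inhba and Fstl3 were among the members called higher with TGF-β. Their promoters are shown as RefSeq gives them for GRCm38.p6, from 250 bases before the start to 50 bases after it. Capitals mark matches to TATAAA on the printed strand and to CAGAC, a core that Smad proteins bind, on either strand, where the reverse complement reads GTCTG. Both genes lie on the plus strand, Inhba at chr13:16011601-16011900 and Fstl3 at chr10:79777024-79777323.
Inhba promoter: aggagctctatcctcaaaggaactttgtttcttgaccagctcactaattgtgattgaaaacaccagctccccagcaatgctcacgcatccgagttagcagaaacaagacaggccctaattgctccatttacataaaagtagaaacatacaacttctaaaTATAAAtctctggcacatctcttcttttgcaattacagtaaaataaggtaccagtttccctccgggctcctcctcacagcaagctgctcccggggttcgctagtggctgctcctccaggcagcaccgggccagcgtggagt
Fstl3 promoter: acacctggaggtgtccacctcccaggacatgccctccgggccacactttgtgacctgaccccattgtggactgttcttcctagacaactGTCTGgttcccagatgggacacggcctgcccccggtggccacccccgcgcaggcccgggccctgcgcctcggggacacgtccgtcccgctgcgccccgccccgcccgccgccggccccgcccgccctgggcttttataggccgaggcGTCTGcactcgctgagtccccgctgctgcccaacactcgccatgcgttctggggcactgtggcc
The Inhba window held a TATAAA at −91, where −1 is the base before the start, and no CAGAC. The Fstl3 window held CAGAC on the reverse strand at −161 and −14, and no TATAAA. Across 32851 RefSeq promoters of this length, CAGAC occurred in 49.59% and TATAAA in 8.32%. The full palindromic Smad box, GTCTAGAC, occurred in 0.21% and the AP-1 motif TGANTCA in 7.81%, and neither occurred in the windows of the 8 members in that set, which does not hold Fst. CAGAC also lay in the windows of Acvr2a (at −188) and Acvr2b (at −233), which were not called for TGF-β. The windows of Fstl1 and Acvr1, which were called higher, held no CAGAC. Whether these motifs bear on the response to TGF-β was not tested.

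The other activin subunit gene was at the floor of detection. Inhbb (ENSMUSG00000037035, minus strand, chr1:119415465-119422248) had 4 counts in each of 3 of the 18 libraries and 0 in the others, so it did not pass edgeR's filter on low counts and was not tested. A count of 0 allows up to 3 counts per library, for counting error only and if each count is an independent read. The nonzero counts of Inhbb were all 4, so this bound may be too low. Inhbb was not detectable at this depth in most libraries, with and without TGF-β.

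Among the antagonists, Fstl3 rose and Fst did not pass. Fstl3 (ENSMUSG00000020325, chr10:79777272-79782630) read 69.1, 62.6 and 59.9 CPM in the empty vector libraries c, d and e without TGF-β, and 116.5, 117.3 and 119.1 CPM with it. The groups did not overlap, and the rise was 1.84-fold in empty vector cells, 1.98-fold in Col1a1-miR-29b cells and 2.06-fold in CMV-miR-29b cells. On the log2 scale these were 0.88, 0.98 and 1.04 (SE 0.06 for each, edgeR adjusted p of 6.81e-08, 2.79e-08 and 1.01e-08). In Col1a1-miR-29b cells the interval of Fstl3 (0.86 to 1.10) lay within that of Inhba, and limma on log2(FPKM + 1) gave Fstl3 the larger change there (0.87, against 0.78 for Inhba). With TGF-β, Fstl3 was 13.8% higher with Col1a1-miR-29b (136.5, 129.8 and 135.5 CPM) than in empty vector cells, at a log2 fold change of 0.19 (SE 0.06, edgeR adjusted p = 0.0378). The 3 libraries lay above all 3 of empty vector, yet the call was lost when any 1 of these 6 libraries was left out (adjusted p of 0.0592 to 0.128) and when length and GC content of the transcripts entered as offsets (0.08, adjusted p = 0.314). Prss57, on the opposite strand, overlaps Fstl3 and had 0 to 136 counts.

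Fst (ENSMUSG00000021765, minus strand, chr13:114452290-114458951) averaged 8.67 ± 1.35 CPM (SD, n = 3) in empty vector cells without TGF-β and 9.12 ± 1.38 CPM (SD, n = 3) with it. The log2 fold change was 0.07 (95% confidence interval −0.20 to 0.35, edgeR adjusted p = 0.874). With Col1a1-miR-29b it was −0.19 (−0.47 to 0.09) and with CMV-miR-29b −0.15 (−0.43 to 0.12). The upper bounds of these intervals lie below the log2 rise of Fstl3 with each vector.

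The antagonist transcripts thus moved unequally against Inhba. In empty vector cells the FPKM ratio of Fstl3 to Inhba, taken within each library, went from 12.4 ± 1.63 (SD, n = 3) to 5.64 ± 1.11 (SD, n = 3) under TGF-β. In Col1a1-miR-29b cells it went from 12.4 ± 1.34 (SD, n = 2) to 11.3 ± 1.55 (SD, n = 2), and these ranges overlapped. In CMV-miR-29b cells it went from 12.4 ± 1.32 (SD, n = 3) to 8.12 ± 0.526 (SD, n = 3). The ratio of Fst to Inhba went from 0.907 ± 0.253 to 0.227 ± 0.0130 (SD, n = 3) with the empty vector, from 1.002 ± 0.0696 to 0.406 ± 0.0976 (SD, n = 2) with Col1a1-miR-29b, and from 0.958 ± 0.0465 to 0.275 ± 0.0183 (SD, n = 3) with CMV-miR-29b. These ratios are given as a description, without a test.

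Fstl1 encodes a secreted glycoprotein that has a follistatin domain. It (ENSMUSG00000022816, chr16:37776873-37836514) had 348, 338 and 339 CPM in the empty vector libraries c, d and e without TGF-β and 570, 528 and 580 CPM with it. The treated libraries were all above the untreated ones, at a 1.64-fold rise (log2 fold change 0.71, SE 0.04, edgeR adjusted p = 2.38e-08). The log2 fold change was 0.54 with Col1a1-miR-29b (SE 0.04, edgeR adjusted p = 7.71e-07) and 0.64 with CMV-miR-29b (SE 0.04, edgeR adjusted p = 9.13e-08). With TGF-β, Fstl1 was lower in Col1a1-miR-29b cells (495, 491 and 498 CPM) than in empty vector cells, at −0.18 on the log2 scale (SE 0.04, edgeR adjusted p = 0.0101). The call was lost without empty vector TGF-β replicate e (−0.15, adjusted p = 0.0721) and when the groups were compared alone (adjusted p = 0.0644). With CMV-miR-29b it read 492, 496 and 475 CPM with TGF-β, also below all empty vector libraries, at −0.20 (SE 0.04). That difference did not pass in edgeR (adjusted p = 0.121) and passed in DESeq2 (adjusted p = 0.00446) and without empty vector TGF-β replicate d (adjusted p = 0.0284).

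Of the 4 receptor genes, only Acvr1 was called with TGF-β in these fits. Acvr1 encodes the type I receptor ALK2, best known as a receptor for bone morphogenetic proteins. It (ENSMUSG00000026836, minus strand, chr2:58388644-58566828) had 30.2, 23.1 and 23.5 CPM in empty vector libraries c, d and e without TGF-β and 46.8, 42.1 and 37.3 CPM with it. The groups did not overlap, at a log2 fold change of 0.72 (SE 0.13, edgeR adjusted p = 0.00242). With CMV-miR-29b it went from 28.3, 21.96 and 26.3 CPM to 41.7, 35.99 and 40.5 CPM (log2 fold change 0.63, SE 0.13, edgeR adjusted p = 0.00818).

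With Col1a1-miR-29b, Acvr1 had 19.96, 24.6 and 19.6 CPM without TGF-β and 28.6, 33.02 and 29.98 CPM with it. The groups were apart here too, but the log2 fold change of 0.51 (SE 0.13, edgeR adjusted p = 0.0333) lost its call when any of 5 of the 6 libraries was left out, with adjusted p of up to 0.161, and only the fit without untreated replicate d kept it. Against the empty vector with TGF-β, Acvr1 was lower with Col1a1-miR-29b at −0.46 (SE 0.13, edgeR adjusted p = 0.0271). The call was lost without empty vector TGF-β replicate c (adjusted p = 0.109), without Col1a1-miR-29b TGF-β replicate c (0.110) and without the treated Col1a1-miR-29b library that has no letter (0.0755). With CMV-miR-29b the same difference was −0.09 (95% confidence interval −0.37 to 0.18, edgeR adjusted p = 0.851).

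Acvr1b, the type I receptor that takes the activin signal to Smad2 and Smad3, did not pass for TGF-β with any vector. Its log2 fold changes were −0.17 (95% confidence interval −0.35 to 0.01) in empty vector cells, 0.03 (−0.15 to 0.21) in Col1a1-miR-29b cells and −0.06 (−0.24 to 0.12) in CMV-miR-29b cells. Acvr1b (ENSMUSG00000000532, chr15:101174067-101213684) was the member called between Col1a1-miR-29b and empty vector without TGF-β. It had 29.6, 23.7 and 26.9 CPM in the empty vector libraries c, d and e, against 21.4, 20.97 and 20.4 CPM in library c, library d and the library without a letter. The Col1a1-miR-29b libraries were all lower, with a difference of −21.8% (log2 fold change −0.35, SE 0.08, edgeR adjusted p = 0.0235). The call was lost without empty vector replicate c (−0.28, adjusted p = 0.0946), without Col1a1-miR-29b replicate d (0.0613) and without the unlettered Col1a1-miR-29b library (0.0750).

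The type II receptors did not pass any test. Acvr2a (ENSMUSG00000052155, chr2:48814109-48903269) averaged 33.9 ± 1.96 CPM (SD, n = 3) in empty vector cells without TGF-β and 35.8 ± 1.35 CPM (SD, n = 3) with it, at a log2 fold change of 0.08 (95% confidence interval −0.06 to 0.22). With TGF-β it was 32.8 ± 0.979 CPM with Col1a1-miR-29b and 33.5 ± 1.04 CPM with CMV-miR-29b (SD, n = 3 each). Against the empty vector these were log2 fold changes of −0.13 (95% confidence interval −0.27 to 0.01) and −0.10 (−0.24 to 0.04). Orc4 overlaps Acvr2a on the opposite strand and had 5298 to 6874 counts, and since no source used here says whether counting used strand, its reads and those of Acvr2a may be mixed.

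Acvr2a was the member with a seed match to miR-29b, so both sequences are shown. The mature mmu-miR-29b-3p of RefSeq is 23 bases long and the same from Mir29b-1 (chr6:31063025-31063047, minus strand) and Mir29b-2 (chr1:195037091-195037113, plus strand) of GRCm38.p6, with its seed, bases 2 to 8, in capitals. The site in Acvr2a lies at chr2:48902240-48902246 of GRCm38 on the plus strand, at base 2452 of a 3′ UTR of 3481 bases, with the complement of the seed in capitals.
mmu-miR-29b-3p: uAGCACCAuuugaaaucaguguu
Acvr2a site: tcttcatgtgtaTGGTGCTcacgatgtctt
A match was found in the annotated 3′ UTRs of 1 of 9 members, and in those of 18.1% of the 14442 tested genes that have one. The 3′ UTRs of Inhba (the longest has 4492 bases) held none, nor did those of Fstl1 (2588 bases) and Acvr1 (1105 bases). The member with a match was not among the 3 called lower with Col1a1-miR-29b and TGF-β. Shorter or shifted matches and sites outside 3′ UTRs were not searched. Whether miR-29b acts directly on any member was not tested.

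Acvr2b (ENSMUSG00000061393, chr9:119402118-119434995) was low, with 61 to 195 counts per library, or 0.830 to 2.44 CPM. Its log2 fold change with TGF-β in empty vector cells was −0.26 (SE 0.31, 95% confidence interval −0.92 to 0.40), an interval too wide to tell a rise from a fall. The other TGF-β responses of Acvr2b were −0.19 (95% confidence interval −0.85 to 0.48) with Col1a1-miR-29b and −0.01 (−0.67 to 0.65) with CMV-miR-29b.

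**Figure D3:**
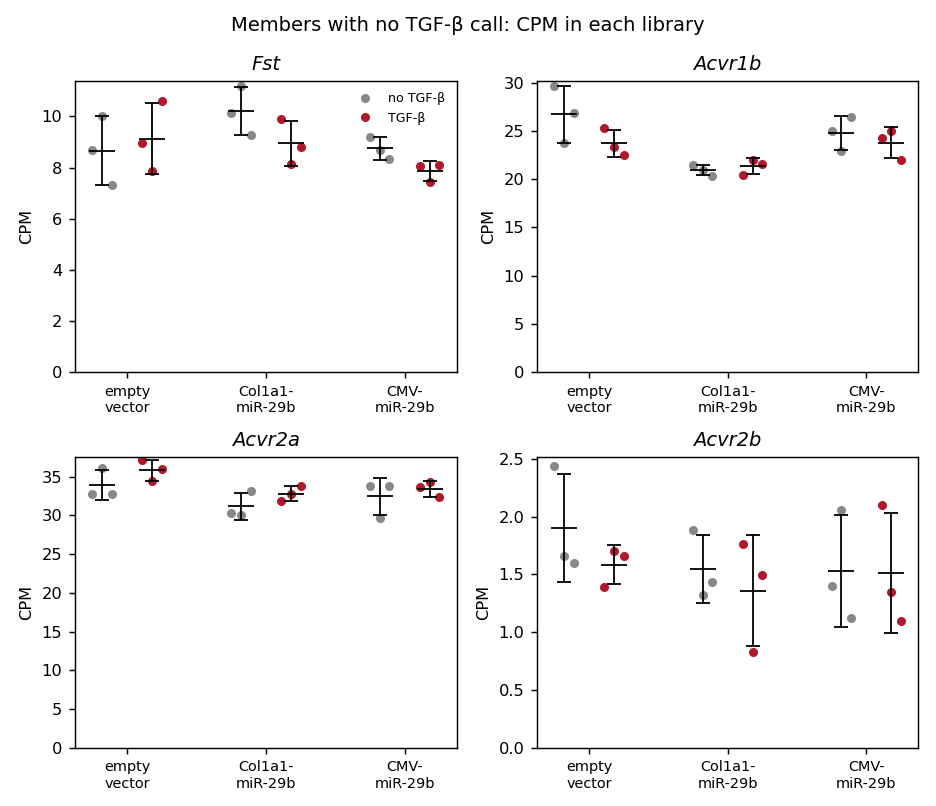
Normalised counts (CPM) of Fst, Acvr1b, Acvr2a and Acvr2b in each of the 18 libraries by vector, grey without TGF-β and red with it, with the mean and SD of each group of 3 in black. No member shown here was called for TGF-β with any vector, and the untreated Col1a1-miR-29b libraries of Acvr1b lie below the untreated empty vector ones.

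Counted over the group, 4 of the 8 members tested rose with TGF-β and 0 fell with the empty vector, where 3.88% of the 21161 genes tested rose. The counts were also 4 and 0 with Col1a1-miR-29b (3% of all genes rose) and with CMV-miR-29b (3.08%), and Inhba, Fstl3, Fstl1 and Acvr1 were called each time. The responses with different vectors use different libraries. Without TGF-β, 1 of 8 members was lower in Col1a1-miR-29b cells than in empty vector cells and 0 were higher, where 3.7% of all genes were lower. CMV-miR-29b had 0 of 8 called (0.00473% of all genes, 1 gene), with Fstl1 at an unadjusted p of 0.00757 and DESeq2 calling 0 members.

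Among treated cells, Col1a1-miR-29b had 3 of 8 members lower (7.63% of all genes were lower) and 1 was higher (5.31%). With CMV-miR-29b, 0 of 8 were called in edgeR (0.00945%, 2 genes), 2 had an unadjusted p under 0.05 (12% of all genes), and DESeq2 called 2 (0.848% of all genes). These comparisons share the empty vector libraries. Between the miR-29b vectors, 0 of 8 members were called without TGF-β (1.81% of all genes) or with it (1.93%), with 3 at an unadjusted p under 0.05 in each (16.4% and 15.6% of all genes) and 0 called by DESeq2 (3.66% and 3.27%). With TGF-β, Inhba was 0.33 higher on the log2 scale with CMV-miR-29b than with Col1a1-miR-29b (95% confidence interval 0.05 to 0.60, edgeR adjusted p = 0.216) and Acvr1 0.37 higher (0.09 to 0.64, edgeR adjusted p = 0.158).

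**Figure D4:**
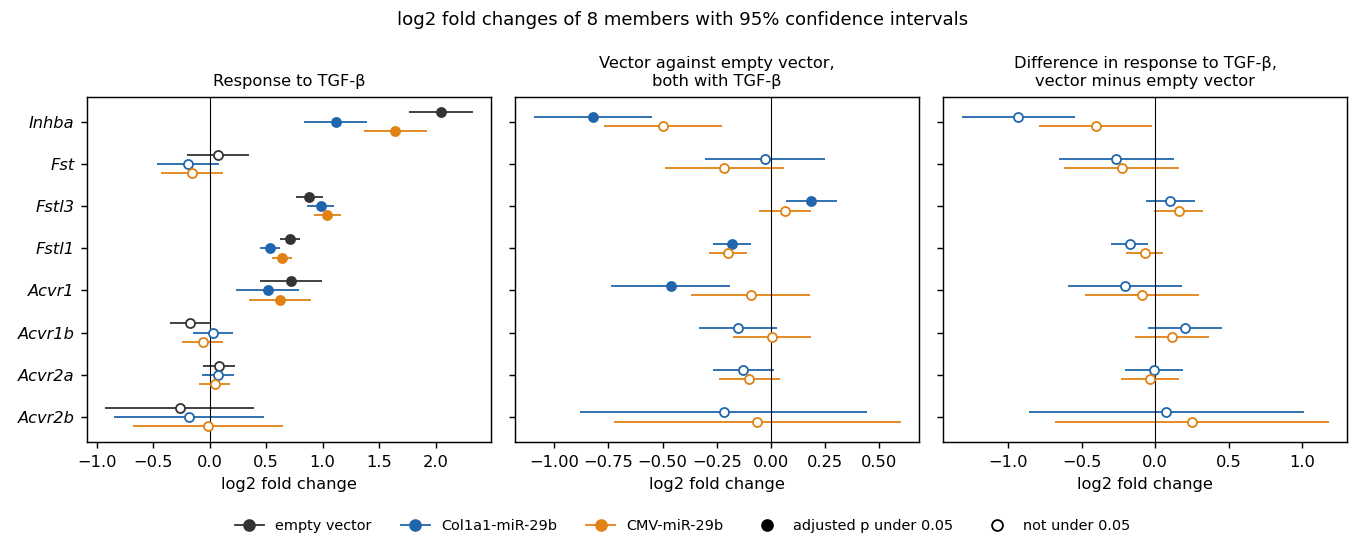
log2 fold changes of the 8 tested members (points) with 95% confidence intervals (lines) for the TGF-β response with each vector, for each miR-29b vector against empty vector with TGF-β, and for the difference in response, with filled points where the edgeR adjusted p was under 0.05. Inhba lies furthest from 0 in the response, at 2.05 with the empty vector, and no point is filled in the panel of differences in response.

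The genes around the activin pathway were read from lists of its other ligands, receptors, antagonists, Smads and known followers. Of 13 tested genes known to follow Smad2 and Smad3 signalling, 10 rose and 0 fell with TGF-β in empty vector cells. Of all genes tested, 3.88% rose there. The median log2 fold change of the 13 was 0.82, against 0.0023 over all genes tested. Pmepa1, a feedback inhibitor of Smad signalling, rose by 3.08 on the log2 scale (SE 0.08), Ltbp2, a matrix protein, by 2.22 (SE 0.11), and Ccn2, a matricellular growth factor, by 1.74 (SE 0.10), with edgeR adjusted p of 1.44e-12, 2.54e-09 and 1.13e-08. Acta2, the smooth muscle actin of myofibroblasts, rose by 1.64 (SE 0.14, edgeR adjusted p = 2.11e-06). In Col1a1-miR-29b cells 8 of these 13 rose (3% of all genes) and in CMV-miR-29b cells 9 (3.08%), again with 0 lower. Compared with treated empty vector cells, treated Col1a1-miR-29b cells had 4 of the 13 lower and 0 higher, where 7.63% of all genes were lower and the median log2 difference of the 13 was 0.011. Among the 4 were Bhlhe40, a transcriptional repressor (−0.41, SE 0.06, edgeR adjusted p = 0.000952), and Pmepa1 (−0.25, SE 0.07, edgeR adjusted p = 0.0288), whose call was lost in 7 of 12 other alternatives and in 4 of the 6 fits that each left out a library, without empty vector TGF-β replicates c and e, Col1a1-miR-29b replicate c and the unlettered library (adjusted p of 0.0706 to 0.138). Ccn2 and Ltbp2 differed by 0.13 (SE 0.09) and 0.07 (SE 0.10) there, without passing. With CMV-miR-29b, edgeR called 0 of the 13 and 0 in the other 4 lists, and DESeq2 called 1 gene in them, the antagonist Grem1. Over all genes, edgeR called 0.00945% and DESeq2 0.848% in this comparison.

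Of 9 other ligands and inhibin subunits tested, edgeR called 0 for TGF-β with any vector. DESeq2 called Gdf1 with each vector and Bmp4 with Col1a1-miR-29b, and edgeR on the groups compared alone called Bmp4 with the empty vector and with Col1a1-miR-29b. Of 9 other receptors tested, 2 rose and 0 fell in empty vector cells, where 3.88% of all genes rose. Bmpr2, a type II receptor for bone morphogenetic proteins, rose by 0.60 (SE 0.06, edgeR adjusted p = 6.01e-06). Bmpr1b, a type I receptor of the same pathway, had 0 to 4 counts per empty vector library without TGF-β and 38 to 45 with it, and it was not called by limma on log2(FPKM + 1). Against the empty vector with TGF-β, 3 of the 9 receptors were lower with Col1a1-miR-29b and 0 higher, Bmpr2 among them (−0.34, SE 0.06, edgeR adjusted p = 0.00214), where 7.63% of all genes were lower. With offsets for length and GC content 0 of the 9 were lower, with Bmpr2 at −0.07 (adjusted p = 0.384), and limma on log2(FPKM + 0.1) called 1.

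Of 12 other secreted antagonists and follistatin-domain proteins tested, 2 rose with TGF-β in empty vector cells and 0 fell, where 3.88% of all genes rose. These were Sparc, a collagen-binding protein with a follistatin domain (0.40, SE 0.04, edgeR adjusted p = 2.16e-05), and Grem1, an antagonist of bone morphogenetic proteins (0.74, SE 0.18, edgeR adjusted p = 0.0249). The call of Grem1 was lost without empty vector replicates d or e, without empty vector TGF-β replicates c or e (adjusted p of 0.103 to 0.142), and in 4 of 12 other alternatives. Grem1 was lower in treated Col1a1-miR-29b cells than in treated empty vector cells (−0.67, SE 0.18, edgeR adjusted p = 0.0243), but this call too was lost when any library but empty vector TGF-β replicate d was left out (adjusted p of 0.0538 to 0.124) and in 5 of 12 other alternatives. Sparc differed by 0.07 (SE 0.04) there. Of 17 Smads, Smad partners and convertases tested, 5 rose and 0 fell in empty vector cells, against the same 3.88% of all genes. Furin, a convertase that cleaves TGF-β family precursors, rose by 0.63 (SE 0.08, edgeR adjusted p = 9.75e-05) and Tgif1, a Smad corepressor, by 0.64 (SE 0.10, edgeR adjusted p = 0.000943). Smad7, the inhibitory Smad, rose by 1.05 (SE 0.30, edgeR adjusted p = 0.0495) with a treated range of 14.7 to 40.2 CPM that overlapped the untreated 10.3 to 17.9 CPM. The count fell from 5 to 3 in 9 of 12 other alternatives and when any of 4 libraries was left out (empty vector replicates c, d and e without TGF-β, and c with it), as Smad7 and Smurf2, a ubiquitin ligase that acts on Smads and their receptors, lost their calls. The call of Smad7 was lost without treated replicate e as well (adjusted p = 0.223). Smad7 and Skil are also in the list of genes known to follow Smad2 and Smad3 signalling. The genes counted as rising in that list therefore include Smad7, and the lists are not independent.

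Across the 18 libraries, log2 CPM of Inhba correlated with that of Fstl1 at r = 0.98, with that of Fstl3 at 0.907 and with that of Acvr1 at 0.876, as a description, since libraries of 6 groups share their group means. Among 13904 genes with a mean of at least 1 CPM, the profiles most like Inhba were those of Sox4 (r = 0.981), Pdgfc (0.979) and Msn (0.979). Those most like Fstl1 were Sox4 (0.984), Col1a1 (0.983) and Col5a2 (0.983). Timp1 and Igfbp7 were among those most like Fstl3 (0.987 for each), and Acvr1 was most like Cavin4 (0.935), Bhlhe40 (0.933) and Tnc (0.931).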

How the data were processed

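Poly(A) RNA of MEF cells was sequenced in 18 libraries, 3 for each of 6 groups of vector and treatment. The authors mapped reads with HISAT2 to the mouse genome and assembled them with StringTie, per the labels and methods. The authors deposited whole-number counts per gene without normalization, and FPKM, with 0.0001 in place of 0 wherever the count was 0 and for 25 of 379671 values with a count above 0. How reads were counted, and whether strand was used, is not given in the sources used here. Submitters' notes name another mouse build than GRCm38, but 52506 of 55450 genes have coordinates identical to GENCODE M21 on GRCm38, which was used for 3′ UTRs. Among counts of 1 to 40, 33.8% to 36.7% were multiples of 4, where even spacing gives 25%. The counts may therefore not be plain tallies of independent reads, and the cause was not tested.

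Each Col1a1-miR-29b group has 1 library whose column letter matches no title, so it entered without a letter and by counts only, and its FPKM (2 columns of per-sample values in all) was not used. Counts were fitted with edgeR 4.0.16 in R 4.3.3 (filterByExpr, TMM, 1 mean per group, quasi-likelihood F tests, Benjamini-Hochberg over 21161 genes, threshold 0.05). CPM are TMM-scaled, and 11 comparisons were tested. The fit was tested on simulated data. A count of 0 allows 3 counts, for counting error only and if each count is an independent read. The alternatives were DESeq2 1.42.0, its size factors, total-count scaling, filters of at least 1 count in any or 10 in every library, groups compared alone, a replicate block, leaving out each library, limma 3.58.1 on log2(FPKM + 1) and log2(FPKM + 0.1), and counts divided by 4. Offsets for transcript length and GC content and a fit without the unlettered libraries were added after seeing the data. The members and lists were chosen with earlier results of these data known. All 9 members are named. Of the pathway lists, genes called for TGF-β in empty vector cells may be named, and for each member called with all 3 vectors the 3 genes of highest correlation, of which 1 is not reported here. Gdf1 and Bmp4 were named after their values were seen, and the alternatives were read for named list genes after seeing the data.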

Additional observations from a re-analysis of the deposited data

How the results depend on the processing

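The TGF-β calls of Inhba, Fstl3 and Fstl1 with each vector, and of Acvr1 with the empty vector and CMV-miR-29b, were kept under all alternatives run. Same-lettered libraries did not deviate together on average (mean r 0.015 over 36 pairs and 11216 genes, against −0.008 over 70 pairs of different letters). Single same-letter pairs ran from −0.135 to 0.155. A mean over these genes cannot exclude that a letter marks a shared culture or day. The replicate block, which leaves out the 2 unlettered libraries, called 0 members between Col1a1-miR-29b and empty vector without TGF-β and 2 with it (Inhba and Fstl1), against 1 and 4. Over all genes the block called 0.737% without TGF-β and 5.27% with it, against 6.271% and 12.939%. The fit without the unlettered libraries and without the block gave 0 and 2 members as well (Inhba and Fstl1), with 1.816% and 7.59% of all genes. The groups compared alone gave 0 and 2 (Inhba and Acvr1), with 4.075% and 5.626% of all genes. Acvr1 lost its call for TGF-β with Col1a1-miR-29b under the replicate block (adjusted p = 0.308), in the same libraries without the block (0.257), with the filter of 1 (0.0552), in the groups alone (0.0573) and in limma + 1 (0.271) and + 0.1 (0.321). For Col1a1-miR-29b against empty vector, limma on log2(FPKM + 1) gave 0 members without TGF-β (2.75% of all genes). On log2(FPKM + 0.1) limma gave 0 without TGF-β (0.359%) and 1 with it (4.641%). DESeq2 called 2 members for CMV-miR-29b against empty vector with TGF-β and 1 for the difference between the responses with Col1a1-miR-29b and empty vector, against 0 each. The cause was not tested. Leaving out 1 library gave 0 to 1 members called for Col1a1-miR-29b against empty vector without TGF-β, 2 to 3 with it, 0 to 2 for CMV-miR-29b with TGF-β, and 3 to 4 for the Col1a1-miR-29b response to TGF-β. Over all genes these fits called 2.132% to 4.757%, 5.882% to 14.489%, 0.014% to 0.729% and 2.871% to 3.096%, in the same order. The 2 members for CMV-miR-29b, and the 0.729%, came without empty vector TGF-β replicate d. The low level of Acvr2b and the groups of 3 limit the precision of values near 0.

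No called value turned. Signs that turned under an alternative were of uncalled log2 differences near 0. Acvr1b in the TGF-β response, Col1a1-miR-29b went from 0.029 to −0.0026 (the block), −0.0043 (no unlettered libraries), −0.0093 (offsets), −0.022 (limma + 1) and −0.026 (limma + 0.1). Fstl1, Col1a1-miR-29b against empty vector, no TGF-β, went from −0.0039 to 0.023 (total counts), 0.023 (the block), 0.024 (no unlettered libraries), 0.011 (offsets), 0.056 (limma + 1) and 0.057 (limma + 0.1). Acvr1, CMV-miR-29b against empty vector, no TGF-β, went from −0.0026 to 0.0072 (offsets). Fst, Col1a1-miR-29b against empty vector, TGF-β, went from −0.028 to 0.011 (total counts), 0.014 (limma + 1) and 0.021 (limma + 0.1). Acvr2a, Col1a1-miR-29b against empty vector, TGF-β, went from −0.13 to 0.0197 (offsets). Acvr1b, CMV-miR-29b against empty vector, TGF-β, went from 0.0035 to −0.0002 (filter of 1). Acvr2b, CMV-miR-29b against Col1a1-miR-29b, no TGF-β, went from −0.018 to 0.077 (the block) and 0.013 (division by 4). Acvr2a, CMV-miR-29b against Col1a1-miR-29b, TGF-β, went from 0.028 to −0.059 (offsets). Acvr2a in the difference in TGF-β response, Col1a1-miR-29b minus empty vector went from −0.0077 to 0.0011 (DESeq2), 0.0022 (total counts), 0.0067 (filter of 10), 0.0019 (groups alone), 0.017 (the block), 0.016 (no unlettered libraries), 0.066 (offsets), 0.0198 (limma + 1) and 0.024 (limma + 0.1). Acvr2b in the difference in TGF-β response, Col1a1-miR-29b minus empty vector went from 0.077 to −0.13 (the block), −0.049 (no unlettered libraries), −0.0062 (limma + 1) and −0.079 (limma + 0.1). Leaving out 1 library gave −0.058 to 0.18 for Fst, TGF-β response, empty vector, −0.42 to 0.074 for Acvr2b, TGF-β response, Col1a1-miR-29b, −0.021 to 0.074 for Acvr2a, TGF-β response, CMV-miR-29b, −0.32 to 0.26 for Acvr2b, TGF-β response, CMV-miR-29b, −0.051 to 0.024 for Fstl1, Col1a1-miR-29b against empty vector, no TGF-β, −0.10 to 0.13 for Fst, CMV-miR-29b against empty vector, no TGF-β. It also gave −0.10 to 0.13 for Acvr1, CMV-miR-29b against empty vector, no TGF-β, −0.13 to 0.10 for Fst, Col1a1-miR-29b against empty vector, TGF-β, −0.45 to 0.033 for Acvr2b, Col1a1-miR-29b against empty vector, TGF-β, −0.032 to 0.055 for Acvr1b, CMV-miR-29b against empty vector, TGF-β, −0.36 to 0.12 for Acvr2b, CMV-miR-29b against empty vector, TGF-β, −0.29 to 0.17 for Acvr2b, CMV-miR-29b against Col1a1-miR-29b, no TGF-β. The remaining ranges were −0.033 to 0.0053 for Fstl1, CMV-miR-29b against Col1a1-miR-29b, TGF-β, −0.15 to 0.40 for Acvr2b, CMV-miR-29b against Col1a1-miR-29b, TGF-β, −0.046 to 0.036 for Acvr2a, difference in TGF-β response, Col1a1-miR-29b minus empty vector, −0.14 to 0.35 for Acvr2b, difference in TGF-β response, Col1a1-miR-29b minus empty vector, −0.0899 to 0.0033 for Acvr2a, difference in TGF-β response, CMV-miR-29b minus empty vector and −0.045 to 0.53 for Acvr2b, difference in TGF-β response, CMV-miR-29b minus empty vector.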
